A study of Mus musculus with 6 samples.

Results

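A group of 6 genes within 306.9 kb of mouse chromosome 10, Cdk4, Tspan31, Agap2, Kif5a, Inhbe and Inhbc, was followed in liver RNA, each gene as the sum of its transcripts and transcript by transcript. The 6 genes were taken by symbol out of 35540 symbols in the deposited table, and they hold 22 of its 116748 transcripts. They were picked after their difference between genotypes had been seen in these same mice, so that difference is described here and carries no test. The liver RNA came from 3 Surf4 fl/fl Alb-Cre+ mice, in which Cre recombinase under the Albumin promoter removes the floxed exon 2 of Surf4 in hepatocytes, and from 3 Surf4 fl/fl Alb-Cre- controls. Controls carry the same homozygous floxed allele and lack the transgene, and both alleles were kept on C57BL/6J by backcrossing. Each genotype had 1 female, its replicate 2, and 2 males, and the age of these mice is not given in the sources used here. The paper's methods for blood and tissue collection state an overnight fast beforehand. SURF4 is a cargo receptor that helps secreted proteins leave the endoplasmic reticulum, and the study asked how its loss changed liver transcripts.

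Abundance is given in TPM, the abundance of a transcript corrected for its length and scaled to the same sum in each library. TPM keep no read numbers, so depth and counting error are unknown and errors below are between mice. Between 10059 and 11125 genes reached 1 TPM in a mouse, and the lowest Spearman correlation between any pair of libraries was 0.959. Alb, the albumin transcript that defines hepatocytes, ranked 1 in the controls. Surf4 itself was at 59.0, 71.8 and 54.3 TPM in replicates 1, 2 and 3 of the Alb-Cre+ mice and at 92.5, 94.5 and 92.5 TPM in the controls. It was lower in every Alb-Cre+ mouse than in any control, the direction that goes with the labelled genotype. The male transcript Ddx3y was at 0 in both mice labelled female and at 19.3 to 22.3 TPM in the males.

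The 6 genes belong to unlike pathways. Cdk4 encodes the kinase that, with D-type cyclins, phosphorylates the retinoblastoma protein and lets cells enter S phase. Tspan31 encodes a tetraspanin, a membrane protein first noted for its amplification together with CDK4 in sarcomas. Agap2 encodes an Arf GTPase-activating protein with a GTPase-like domain, studied mostly in brain, and Kif5a encodes the kinesin-1 heavy chain of neurons, a motor that carries cargo along microtubules. Inhbc and Inhbe encode the inhibin beta C and beta E chains, secreted members of the TGF-beta family made largely by hepatocytes.

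On chromosome 10 of GRCm38, Cdk4 lies on the plus strand at 127063534 to 127067920 and Tspan31 on the minus strand at 127067280 to 127070264. The genes point at each other, and the last exons of their principal transcripts overlap tail to tail by 641 bases, from 127067280 to 127067920, with 0 coding bases of one gene inside the other. This stretch is 41.2% of the principal Tspan31 mRNA (ENSMUST00000060991.6, 6 exons) and 31.2% of the principal Cdk4 mRNA (ENSMUST00000006911.12, 8 exons). On the far side of Tspan31, the noncoding gene A730063M14Rik, not analysed here, starts 110 bases away on the plus strand, followed by Agap2 on the plus strand at 127075284 to 127093169. Kif5a lies on the minus strand at 127225696 to 127263348. Inhbe (127348857 to 127354411) and Inhbc (127356322 to 127370431) stand in a row on the minus strand, 1910 bases apart.

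The promoter windows of Cdk4 and Tspan31 are shown because this pair shares a transcribed stretch while its TPM differed between genotypes in 1 gene and not visibly in the other. The windows of Agap2 and Inhbc are shown as those of the other 2 genes that were lower in every Alb-Cre+ mouse. Each window runs from 250 bases before to 50 bases after the RefSeq start (GRCm38.p6), is written 5′ to 3′ on the gene's own strand, and has the searched motifs in capitals. All motifs were searched on both strands. The E-box was searched as CACGTG and the CCAAT box by the letters of its name. The core of the cAMP response element was searched as TGACGT, and the GC box as GGGCGG. The sterol response element was searched as TCACNCCAC, and the TATA box as TATAAA.
Cdk4, chr10:127063285-127063584, plus strand: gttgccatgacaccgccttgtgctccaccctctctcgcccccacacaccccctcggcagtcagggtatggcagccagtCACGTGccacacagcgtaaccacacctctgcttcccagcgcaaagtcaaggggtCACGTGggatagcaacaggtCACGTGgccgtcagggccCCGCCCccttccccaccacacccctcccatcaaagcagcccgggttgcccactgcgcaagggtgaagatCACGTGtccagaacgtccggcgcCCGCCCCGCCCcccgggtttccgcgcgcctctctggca
Tspan31, chr10:127070212-127070511, minus strand: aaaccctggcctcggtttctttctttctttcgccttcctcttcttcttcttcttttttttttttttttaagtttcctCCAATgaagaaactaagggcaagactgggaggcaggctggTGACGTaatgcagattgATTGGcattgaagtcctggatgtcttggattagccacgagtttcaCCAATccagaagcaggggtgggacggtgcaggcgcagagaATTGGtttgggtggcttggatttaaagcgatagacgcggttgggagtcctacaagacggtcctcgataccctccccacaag
Agap2, chr10:127078657-127078956, plus strand: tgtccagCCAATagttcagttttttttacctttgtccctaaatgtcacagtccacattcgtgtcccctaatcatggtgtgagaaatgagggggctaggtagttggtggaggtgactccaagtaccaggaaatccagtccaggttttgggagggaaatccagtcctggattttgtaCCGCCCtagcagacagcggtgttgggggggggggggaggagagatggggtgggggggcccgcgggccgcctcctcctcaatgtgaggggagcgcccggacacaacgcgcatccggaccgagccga
Inhbc, chr10:127370499-127370798, minus strand: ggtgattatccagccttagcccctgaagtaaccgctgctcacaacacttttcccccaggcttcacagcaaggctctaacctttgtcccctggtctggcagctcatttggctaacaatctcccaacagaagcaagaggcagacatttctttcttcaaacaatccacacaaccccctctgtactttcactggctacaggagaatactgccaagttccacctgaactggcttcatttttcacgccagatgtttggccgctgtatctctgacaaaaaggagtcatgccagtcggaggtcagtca

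The Cdk4 window held 4 E-boxes and 3 GC boxes, of which 2 GC boxes overlap by their outer base. The Tspan31 window held 4 CCAAT boxes and 1 core of the cAMP response element, and it shares 281 of its 300 bases with the window of A730063M14Rik on the opposite strand. The Agap2 window held 1 CCAAT box and 1 GC box, the Inhbe window (chr10:127351799-127352098, minus strand) held 1 CCAAT box, and the Inhbc window held 0 of the 6 motifs. The Inhbe window lies inside the annotated gene, away from the start of the measured Inhbe transcript at 127354411. The Inhbc window stops at 127370499, upstream of the start of the measured Inhbc transcript at 127370431, and so does not cover the bases next to that start. Of 32851 RefSeq promoter windows of this length, 7.15% held the E-box, 37.4% the CCAAT box, 7.51% the cAMP response element core, 35.7% the GC box, 1.24% the sterol response element and 13.6% the TATA box. The motifs of the Cdk4 and Tspan31 windows did not include the same element. A match to these letters is a description of the sequence and does not show that a factor binds there.

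Of the 6 genes, 3 were lower in every Alb-Cre+ mouse than in any control (Agap2, Tspan31 and Inhbc), 1 was higher in every Alb-Cre+ mouse (Kif5a) and 2 overlapped between genotypes (Cdk4 and Inhbe). All 6 passed the minimum mean of 0.1 TPM. Among all 14189 genes above that minimum, 385 (2.71%) were lower without overlap and 310 (2.18%) were higher without overlap. Nothing is read from the comparison of these shares with the 3 and 1 of 6, because the 6 genes were picked on this contrast. With limma on log2(TPM + 0.1) and Benjamini-Hochberg adjustment, 0 genes (0%) passed an adjusted p of 0.01, while 250 had an unadjusted p under 0.05. The smallest adjusted p in limma was 0.456. The paper used DESeq2 and reported genes up and down at a false discovery rate under 0.01. The count of 0 belongs to this fit on TPM and does not show that no gene differs. The median log2 fold change was -0.57 over the 6 genes and -0.0017 over all genes tested. Nothing is read from this gap either, because the 6 genes were picked on this contrast. Because whole liver was sequenced, fewer cells of a type and less RNA per cell cannot be told apart for any of these values.

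**Figure D1:**
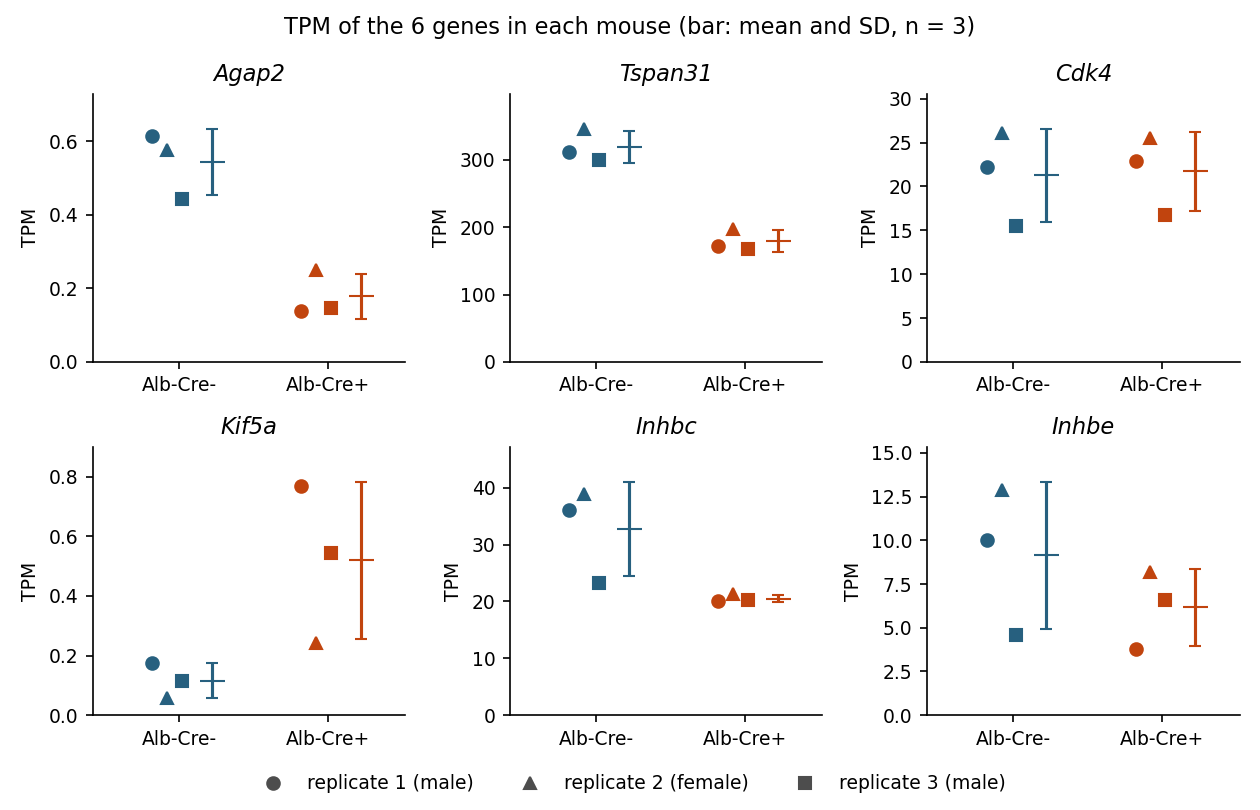
TPM (vertical axis, linear, from 0) of each of the 6 genes in the 3 Alb-Cre- and 3 Alb-Cre+ mice, with the mean and SD beside the points and a marker shape for each replicate number. Tspan31, Agap2 and Inhbc sit lower in all 3 Alb-Cre+ mice, Kif5a sits higher, and Cdk4 and Inhbe overlap.

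Tspan31 was by far the most abundant of the 6, ranking 406 of 14189 genes in the controls. It stood at 172.8, 197.5 and 167.2 TPM in Alb-Cre+ replicates 1, 2 and 3 and at 311.2, 346.5 and 300.0 TPM in control replicates 1, 2 and 3. The highest Alb-Cre+ mouse was far below the lowest control, and in both genotypes the female was highest and replicate 3 lowest. The means were 179 ± 16.2 TPM and 319 ± 24.2 TPM (SD, n = 3 each), 0.561 times the control level, with a log2 fold change of -0.83 (standard error 0.12). The log2 difference was -0.85, -0.81 and -0.84 in the pairs of mice that share replicate number 1, 2 and 3, so the 3 pairs differed by nearly the same amount.

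Cdk4, the tail-to-tail partner of Tspan31, was at 22.9, 25.5 and 16.7 TPM in Alb-Cre+ replicates 1, 2 and 3 and at 22.2, 26.1 and 15.5 TPM in the controls. The genotypes overlapped throughout and again the female was highest and replicate 3 lowest in each. The means were 21.7 ± 4.51 TPM and 21.3 ± 5.33 TPM (SD, n = 3 each), and the log2 fold change of 0.04 was smaller than its standard error of 0.24. In the pairs of mice that share replicate number 1, 2 and 3 the log2 difference was 0.04, -0.03 and 0.11. With replicate number in the fit, the standard error was 0.10. When mice were left out in turn, which breaks a pair, the log2 fold change ran from -0.17 to 0.22 and its sign changed.

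Agap2 was scarce. It was at 0.138, 0.249 and 0.147 TPM in Alb-Cre+ replicates 1, 2 and 3 and at 0.614, 0.575 and 0.442 TPM in the controls. All 3 Alb-Cre+ mice lay below every control, with means of 0.178 ± 0.0614 TPM and 0.544 ± 0.0903 TPM (SD, n = 3 each). The log2 fold change was -1.22 (standard error 0.33), and it was -0.39 with a pseudocount of 1 TPM in place of 0.1, a shift that comes with levels under 1 TPM.

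Kif5a was the 1 gene of the 6 that was higher in Alb-Cre+ mice. It was at 0.770, 0.243 and 0.545 TPM in Alb-Cre+ replicates 1, 2 and 3 and at 0.175, 0.0564 and 0.114 TPM in the controls, with the female lowest in both genotypes. The female Alb-Cre+ mouse was close above the highest control, and the male Alb-Cre+ mice were well above it. The means were 0.519 ± 0.264 TPM and 0.115 ± 0.0593 TPM (SD, n = 3 each), the log2 fold change was 1.46 (standard error 0.45), and it was 0.43 with a pseudocount of 1 TPM. Neuron and nerve markers were near the floor in the same libraries: 3 of 8 passed the minimum, the summed level of the list was 1.88 to 2.39 TPM in Alb-Cre+ mice and 1.68 to 2.02 TPM in controls, and Map2 (log2 fold change 0.81) overlapped between genotypes. Their part in the Kif5a values was not tested.

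Inhbc was at 20.1, 21.3 and 20.2 TPM in Alb-Cre+ replicates 1, 2 and 3 and at 36.05, 38.9 and 23.3 TPM in the controls. The Alb-Cre+ mice were close to each other, and control replicate 3 came nearer to them than to the other controls. The means were 20.5 ± 0.645 TPM and 32.8 ± 8.30 TPM (SD, n = 3 each), with a log2 fold change of -0.64 (standard error 0.20). Its neighbour Inhbe was at 3.81, 8.16 and 6.57 TPM in Alb-Cre+ replicates 1, 2 and 3 and at 10, 12.9 and 4.59 TPM in the controls. Inhbe overlapped between genotypes, with a log2 fold change of -0.50 close to its standard error of 0.44, and the pair of mice with replicate number 3 went the other way, at 0.51 against -1.37 and -0.65. The ratio of Inhbc to Inhbe was 3.65 ± 1.42 in Alb-Cre+ mice and 3.90 ± 1.06 in controls (SD, n = 3 each).

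The summed level of 8 hepatocyte markers ran from 63230 to 82640 TPM in Alb-Cre+ mice and from 80470 to 93450 TPM in controls, with 2 of the 8, Ttr and Apoa1, lower without overlap (log2 fold changes -0.37 and -0.91), beside 2.71% of all genes. Apoa1 encodes the main protein of high-density lipoprotein, and Ttr encodes transthyretin, a carrier of thyroid hormone. The hepatocyte sums overlapped between genotypes, as did Hnf4a (log2 fold change 0.08) and Alb (-0.07) of that list. The summed levels of the other lists overlapped too. They were 157 to 554 against 203 to 529 TPM for Kupffer cells and macrophages. For sinusoidal endothelium they were 87.4 to 204 against 116 to 184 TPM. For stellate cells and fibroblasts they were 107 to 219 against 89.6 to 227 TPM, and for cholangiocytes 29.6 to 46.7 against 19.5 to 67.0 TPM. B cell markers summed to 4.40 to 10.9 against 4.42 to 11.0 TPM, and T and NK cell markers to 2.62 to 5.38 against 2.36 to 7.50 TPM. Among stellate cell and fibroblast markers, 1 of 8, Col3a1, was lower without overlap (log2 fold change -0.45), beside the same 2.71%. In each list 0 markers were at 0 in every mouse, and the part of these cell types in the differences of the 6 genes was not tested.

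The question of whether Tspan31 and Cdk4 trade TPM has 3 readings in these data: the balance of the pair between genotypes, the transcripts that avoid the shared stretch, and the mice within a genotype. Between genotypes, the mean Tspan31 level fell by 140.1 TPM while the mean Cdk4 level differed by 0.445 TPM, and the sum of both differed by -139.6 TPM, from 340 ± 29.1 to 201 ± 20.1 TPM (SD, n = 3 each). The Cdk4 difference was smaller than the SD of Cdk4 in either genotype. The share of Tspan31 in that sum was 88.3, 88.6 and 90.9% in Alb-Cre+ replicates 1, 2 and 3 and 93.3, 93.0 and 95.1% in the controls, with means of 89.2 ± 1.44% and 93.8 ± 1.11% and a difference of -4.55 percentage points. The ratio of Tspan31 to Cdk4, the same values in another form, was 8.42 ± 1.37 in Alb-Cre+ mice and 15.5 ± 3.29 in controls. With Cdk4 nearly level, the lower Tspan31 lowers both the share and the ratio. Tspan31 was picked on this contrast, so neither is a separate result.

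Reads from the shared 641 bases can be assigned to either gene unless strand is used, and the strandedness of the libraries is not given in the sources used here. Of all stretches of 31 bases in the annotated Tspan31 transcripts, 28.2% occur on the opposite strand of another gene's transcripts, and 611 of them are those of Cdk4. The same holds for 18.6% of the Cdk4 stretches. For Inhbc, 13.1% occur on the opposite strand of Gm47200, and for the other 3 genes the share was at most 1.43%. Stretches shared on the same strand were at most 2.63% in any of the 6 genes. The TPM of Tspan31, Cdk4 and Inhbc are therefore uncertain to the extent that reads were split at these stretches.

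Transcripts with no base in the overlap were summed apart from those that contain it. The overlap-free transcripts lie within the span of the principal transcript of their gene. Reads from bases that transcripts of a gene share can be assigned to either, so the sums are not independent measures. The 4 overlap-free Tspan31 transcripts summed to 4.21, 7.57 and 3.54 TPM in Alb-Cre+ replicates 1, 2 and 3 and to 7.89, 13.4 and 10.8 TPM in the controls, lower in all Alb-Cre+ mice and 0.477 times the control mean. The Tspan31 transcript that contains the overlap was at 168.5, 190.0 and 163.7 TPM against 303.3, 333.1 and 289.2 TPM, or 0.564 times the control mean. Both sums were thus lower in every Alb-Cre+ mouse, although of the 4 overlap-free Tspan31 transcripts taken singly 1 was lower in every Alb-Cre+ mouse and 3 overlapped between genotypes. The 7 overlap-free Cdk4 transcripts summed to 7.55, 6.54 and 2.06 TPM in Alb-Cre+ mice and to 5.76, 8.10 and 1.44 TPM in controls, 1.06 times the control mean. The 2 Cdk4 transcripts that reach into the overlap had means of 16.3 ± 2.31 and 16.2 ± 1.94 TPM (SD, n = 3 each), 1.01 times the control mean. Of these 2, ENSMUST00000140254.8 has only 18 of its 2038 bases (0.88%) in the overlap. Both groups of Cdk4 transcripts overlapped between genotypes.

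**Figure D2:**
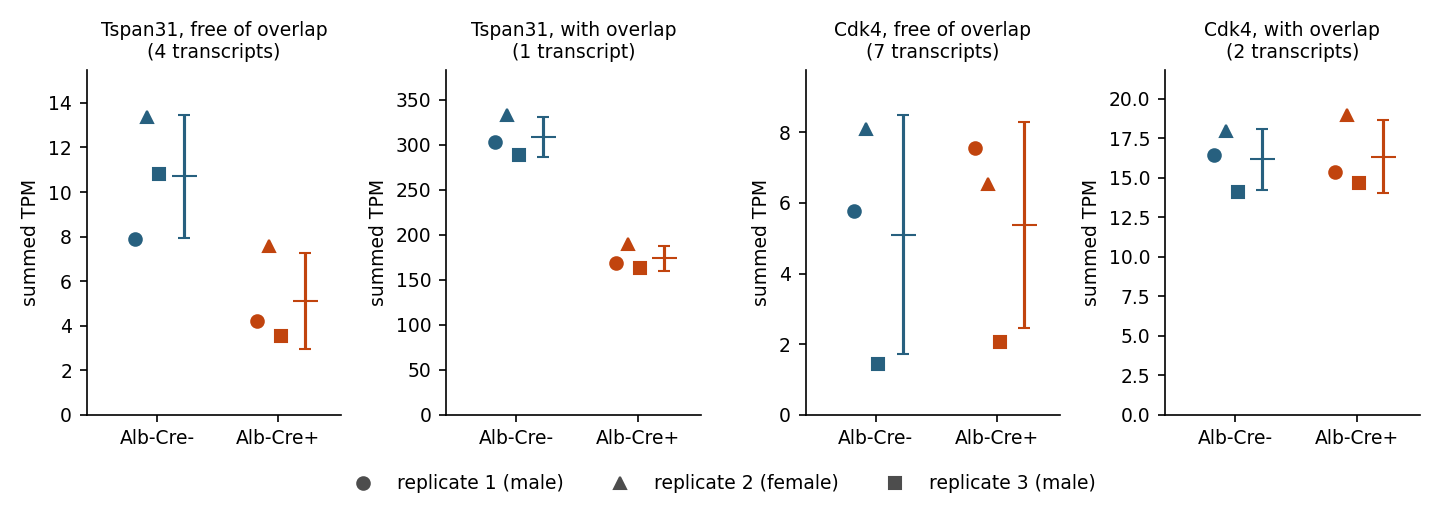
Summed TPM (vertical axis, linear, from 0) of the Tspan31 and Cdk4 transcripts with and without bases in the 641-base overlap, in each mouse, with the mean and SD. Tspan31 is lower in the Alb-Cre+ mice in both panels (0.477 and 0.564 times the controls) and Cdk4 overlaps in both.

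Within a genotype, Tspan31 and Cdk4 ranked the mice in the same order in the deposited TPM, with replicate 3 lowest, replicate 1 between and the female replicate 2 highest for both genes in both genotypes. The deviations of log2(TPM + 0.1) from the genotype means had a Pearson r of 0.835 over the 6 mice (two-sided exact permutation within genotypes, 36 arrangements, p = 0.139) and a Spearman rho of 0.829 (p = 0.0556). This was 1 relation, so the adjusted p is the same, and the smallest p that the 36 arrangements can give is 0.0278. These arrangements move mice freely within a genotype and do not keep the pairing by replicate number, so their p-values hold only for unpaired mice. Without the mice farthest from the median of Tspan31, both replicate 2, r was 0.954. A trade would give a negative r, and the sign depended on the scaling and on the pairing. It was -0.254 (exact p = 0.556) after scaling each library by the median of ratios, and -0.820 (exact p = 0.5) with the replicate block, over the 3 differences between paired mice. It was 0.339 (exact p = 0.5) in the transcripts free of the overlap and 0.937 (exact p = 0.0278) between the principal transcripts. A trade between mice of a genotype was thus neither shown nor bounded by these 6 mice.

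**Figure D3:**
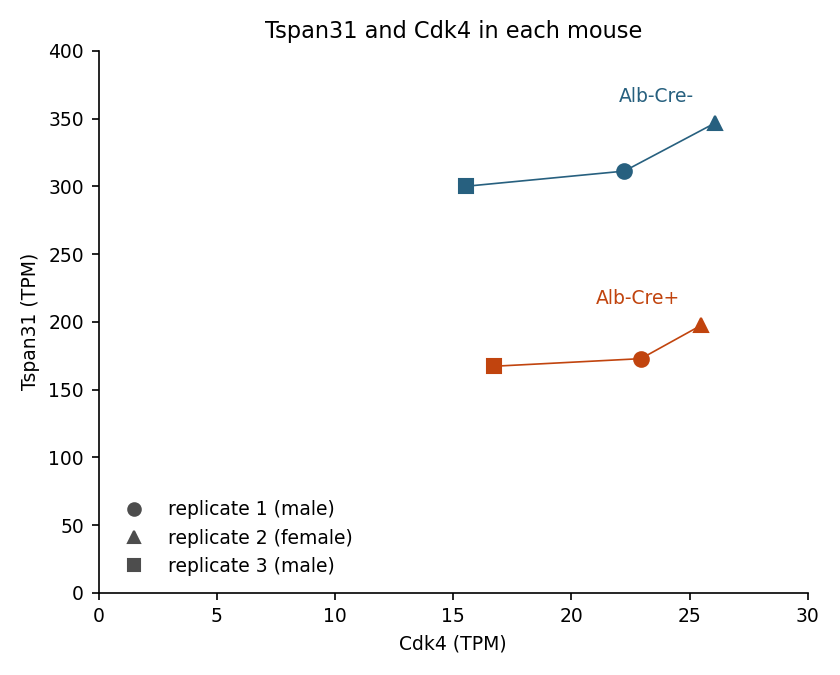
Tspan31 TPM (vertical axis) against Cdk4 TPM (horizontal axis) in each mouse, both linear from 0, with a line joining the mice of a genotype in order of Cdk4. The genotypes cover the same Cdk4 range, 15.5 to 26.1 TPM, at separate Tspan31 levels, 167.2 to 197.5 TPM in Alb-Cre+ and 300.0 to 346.5 TPM in control mice.

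Of the 22 transcripts of the 6 genes, 17 passed the minimum, and of these 6 were lower without overlap, 1 was higher and 10 overlapped between genotypes. Among all 41627 transcripts tested, 2.79% were lower and 3.35% higher without overlap, and with limma 0 (0%) passed an adjusted p of 0.01, while 1182 had an unadjusted p under 0.05. The principal Tspan31 transcript made up 96.1 to 97.9% of the gene's TPM in every mouse. Beside it, the 3-exon noncoding ENSMUST00000218603.2 was lower without overlap, with means of 1.20 ± 0.435 against 3.05 ± 0.496 TPM (SD, n = 3 each). The retained-intron transcript ENSMUST00000220344.2, at 3.09 against 6.35 TPM, overlapped between genotypes, because Alb-Cre+ replicate 2, at 4.76 TPM, exceeded control replicate 1, at 4.69 TPM. The retained-intron transcript ENSMUST00000218488.2 also overlapped, with means of 0.817 ± 0.286 against 1.065 ± 0.394 TPM (SD, n = 3 each) and a log2 fold change of -0.34 (standard error 0.38). ENSMUST00000217875.2 was above 0 only in control replicate 2.

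The principal Cdk4 transcript carried 64.3 to 87.7% of the gene's TPM and was at 15.4 ± 1.72 TPM in Alb-Cre+ and 15.6 ± 1.71 TPM in control mice (SD, n = 3 each). The 2-exon retained-intron transcript ENSMUST00000145670.2 varied most, at 5.06, 2.79 and 0 TPM in Alb-Cre+ replicates 1, 2 and 3 and at 3.77, 3.94 and 0 TPM in the controls. It was listed at 0 in replicate 3 of both genotypes, the mice with the lowest Cdk4. The other 4 Cdk4 transcripts that passed the minimum and overlapped between genotypes had means of 1.49 against 0.930 TPM (ENSMUST00000135179.8), 0.984 against 0.978 TPM (ENSMUST00000125682.2), 0.979 against 0.629 TPM (ENSMUST00000140254.8) and 0.176 against 0.3345 TPM (ENSMUST00000133115.8) in Alb-Cre+ and control mice. The single Cdk4 transcript lower without overlap, ENSMUST00000123456.2, was at 0.0382, 0.0807 and 0.205 TPM against 0.218, 0.359 and 0.232 TPM, under 1.5% of the gene's TPM in every mouse.

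Agap2 was spread over an 18-exon coding transcript, ENSMUST00000217941.2, and ENSMUST00000239120.2, which is not in the annotation release used here. The first was at 0.138, 0.156 and 0.0540 TPM in Alb-Cre+ replicates 1, 2 and 3 and at 0.404, 0.316 and 0.315 TPM in the controls. Both were lower without overlap, and the 19-exon coding transcript ENSMUST00000039259.7 was listed at 0 in every mouse. Kif5a came mostly from a transcript of 712 bases in 5 exons, ENSMUST00000218298.2, annotated as a target of nonsense-mediated decay. That transcript was at 0.684, 0.188 and 0.441 TPM in Alb-Cre+ mice and at 0.139, 0 and 0.0772 TPM in controls. The 29-exon coding Kif5a transcript, ENSMUST00000099172.5, which encodes the full motor, was at 0.0855, 0.0554 and 0.104 TPM in Alb-Cre+ mice against 0.0357, 0.0564 and 0.0373 TPM in controls, below the minimum mean and overlapping between genotypes. The other coding transcript of Kif5a was listed at 0 throughout.

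Between Cdk4 and Inhbc and among the 5 next genes on each side, 30 other genes are annotated, of which 23 had values and 17 passed the minimum. Of the 14 at a mean of 1 TPM or more, 0 were free of overlap between genotypes, and of all 17 tested 0 were. Over all genes 2.71% were lower and 2.18% higher without overlap, so a count of 0 in 17 is near that share. Their log2 fold changes, at 1 TPM or more, ran from -0.44 (Ddit3, a transcription factor of the unfolded protein response) to 0.29 (Ndufa4l2), with a median of 0.015. Os9, a lectin of endoplasmic reticulum quality control that follows Agap2, was at 104.8 ± 3.92 TPM in Alb-Cre+ and 108.7 ± 9.80 TPM in control mice (SD, n = 3 each). The other 7 annotated genes were not analysed here.

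**Figure D4:**
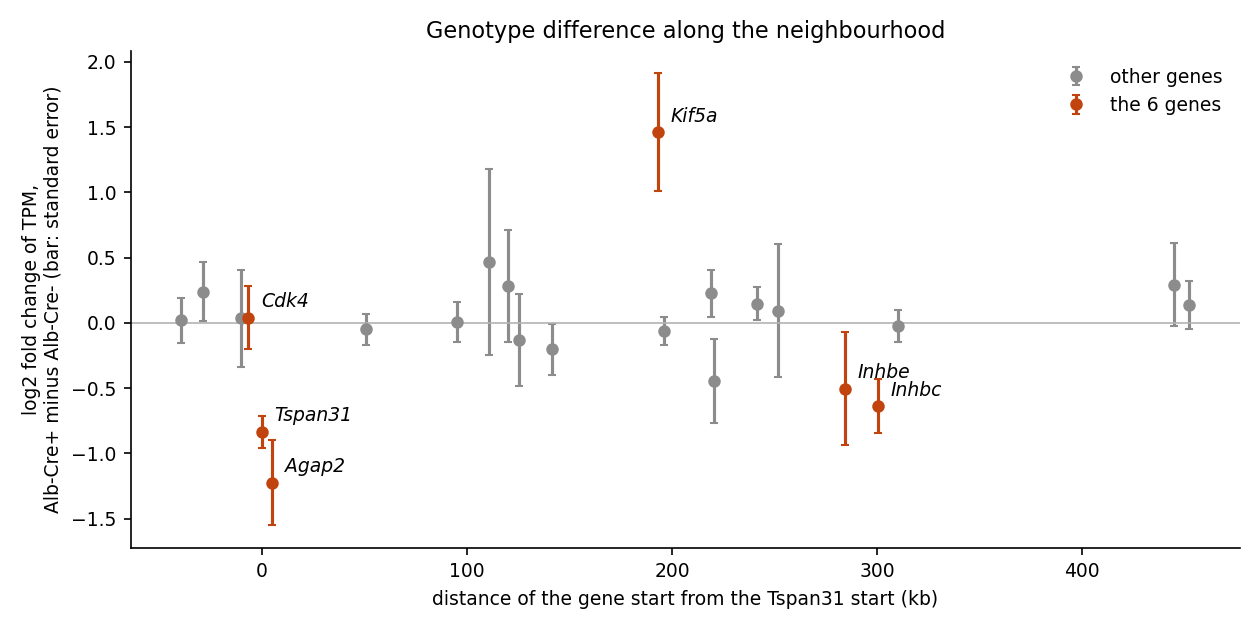
Log2 fold change of TPM between genotypes (vertical axis, Alb-Cre+ minus Alb-Cre-, with its standard error from limma, n = 3 mice each) against the distance of each gene's start from the start of Tspan31 in kb (horizontal axis). Tspan31 (-0.83), Agap2 (-1.22), Inhbc (-0.64) and Inhbe (-0.50, standard error 0.44) lie below the other 17 genes, which run from -0.44 to 0.46. Kif5a (1.46) lies above them and Cdk4 (0.04) among them. The 6 genes were picked on this contrast, so their place outside the others is no result.

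Sex is a contrast that did not enter the choice of the genes. With limma and sex and genotype as terms, 73 of 14189 genes (0.514%) passed an adjusted p of 0.01 between the 2 females and the 4 males, and 0 of the 6 genes did. The median gene was 0.26 higher in females on the log2 scale in the deposited TPM, and -0.011 after scaling by the median of ratios, so each value is given on both scalings. Kif5a was -0.88 in females in the deposited TPM (standard error 0.32, adjusted p = 0.138) and -1.07 after scaling (adjusted p = 0.0871). Inhbe was 0.80 higher (standard error 0.35, adjusted p = 0.192) and 0.52 after scaling. Cdk4 was 0.43 higher (adjusted p = 0.207) and 0.15 after scaling, and Agap2 0.32 higher (adjusted p = 0.506) and 0.12 after scaling. Tspan31 (0.20, adjusted p = 0.233) and Inhbc (0.25, adjusted p = 0.431) turned to -0.087 and -0.035 after scaling.

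Summed Kupffer cell and macrophage markers were 553.6 and 529.3 TPM in the females and 156.6 to 239.4 TPM in the males. Both females also exceeded every male in the summed markers of sinusoidal endothelium (204.2 and 184.1 against 87.4 to 148.6 TPM) and of stellate cells and fibroblasts (219.2 and 227.2 against 89.6 to 168.3 TPM). The same held for B cells (10.9 and 11.0 against 4.40 to 8.32 TPM) and for T and NK cells (5.38 and 7.50 against 2.36 to 4.68 TPM). It did not hold for cholangiocytes (46.7 and 41.1 against 19.5 to 67.0 TPM) or hepatocytes (77730 and 93450 against 63230 to 88410 TPM). Neuron and nerve markers overlapped as well (2.39 and 1.74 against 1.68 to 2.31 TPM). These sums are in the deposited TPM only, in which the median gene was 0.26 higher in females on the log2 scale. The part of these cell types in the sex values was not tested, and sex and replicate number 2 cannot be told apart. The genotype difference of the 6 genes was not shown to depend on sex, with adjusted p of 0.851 to 0.972 for the interaction in limma, a test with 1 female per genotype.

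Other genes of the same pathways were described by the same counts, to be read beside the 2.71% lower and 2.18% higher without overlap over all genes. A count of 0 in lists of this size is near that share. In the cyclin D, CDK4 and RB list, 21 of 23 genes passed the minimum, 0 were free of overlap and the median log2 fold change was -0.04, from Cdkn1a (-0.51), a cyclin-dependent kinase inhibitor, to E2f8 (0.37), a repressor of the E2F family. In the activin and inhibin list, 15 of 18 passed, 0 were free of overlap and the median was 0.10, from Fst (-0.61), which encodes the activin antagonist follistatin, to Inhba (0.62), the inhibin beta A chain. In the kinesin-1 list, 11 of 12 passed, 0 were free of overlap and the median was 0.08, from Klc3 (-0.02), a light chain, to Mapk8ip3 (0.34), a cargo adaptor. With limma, 0 genes of these 3 lists passed an adjusted p of 0.01, as with all genes.

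Among Arf GTPase-activating proteins other than Agap2, 22 of 22 passed, 1 was higher without overlap (Adap2, log2 fold change 0.21), 0 were lower, and the median was 0.08, beside 2.18% higher and 2.71% lower over all genes. A count of 1 in 22 is near that share. The values ran from Arap2 (-0.26) to Agap1 (0.54), which overlapped between genotypes. Among tetraspanins other than Tspan31, 23 of 28 passed, 2 were lower without overlap, 0 were higher and the median was -0.14, beside 2.71% lower and 2.18% higher over all genes. The values ran from Tspan8 (-0.69) to Tspan4 (0.36), with Tspan1 listed at 0 in every mouse. The 2 lower genes were Tspan12, which encodes a Norrin and Frizzled co-receptor, and Tspan18. Tspan12 was at 79.9, 85.2 and 78.2 TPM in Alb-Cre+ replicates 1, 2 and 3 and at 99.7, 107.6 and 101.3 TPM in the controls (log2 fold change -0.34). Tspan18 was at 0.470, 0.493 and 0.301 TPM against 0.746, 0.808 and 0.636 TPM (-0.69). In these lists too, 0 genes passed an adjusted p of 0.01 in limma.

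The genes most like each of the 6 were ranked by Pearson r of log2(TPM + 0.1) over the 6 mice among about 10634 genes at 1 TPM or more. This is a description of mice that share libraries and the genotype split. The 6 genes were picked on that split, so nothing is read from r between them. Tspan12 was the most like Tspan31 (r = 0.996), followed by Serpina11 (0.991) and Fads2 (0.987). Fads2, the delta-6 fatty acid desaturase, was at 73.2, 88.5 and 52.5 TPM in Alb-Cre+ mice and at 189.5, 218.0 and 173.7 TPM in controls. Tspan31 was itself the second most like Agap2 (0.980), after D8Ertd738e (0.987) and before Pgm3 (0.977). Cdk4 went with Hnrnpa3 (0.999), Eif3c (0.997) and Dnajc8 (0.997), and its r with Tspan31 over the 6 mice was 0.120.

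Kif5a went with H13 (0.978), Zfp2 (0.973) and Aprt (0.964), and its r with Tspan31 was -0.923. Inhbc went with Gm8325 (0.983), Fam151b (0.982) and Pcolce (0.972), of which Gm8325 was listed at 0 in 4 of the 6 mice. Inhbe went with Gm2446 (0.978), Pnldc1 (0.966) and Rsl1d1 (0.947), and its r with Inhbc was 0.792.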

How the data were processed

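Liver RNA of 3 Surf4 fl/fl Alb-Cre+ and 3 Surf4 fl/fl Alb-Cre- mice was sequenced. The authors deposited TPM per transcript with a mouse gene symbol. The submitters' processing notes name STAR, RSEM, DESeq2 and Salmon on GRCm38; tool versions, strandedness and the transcript release behind the TPM are not given in the sources used here. A deposited table of the authors' own comparison (mean normalized count, log2 fold change, its standard error, statistic, p and adjusted p) was not used. The 6 genes and all lists were chosen with earlier results of these data known.

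TPM were summed per symbol (transcripts without a symbol, 0.0515 to 0.0887% of TPM, were left out). Genes or transcripts averaging 0.1 TPM or more were fitted by limma 3.58.1 (R 4.3.3) on log2(TPM + 0.1), with empirical Bayes, a trend on level, genotype as the single term and Benjamini-Hochberg adjustment over all features, at a threshold of 0.01. Fold changes on this scale understate changes of low genes. Sex was tested with genotype in the fit. The Tspan31 and Cdk4 relation used an exact permutation (scipy 1.17.1). Positions come from GENCODE M21 (GRCm38), matched by transcript identifier, and promoters from RefSeq (GRCm38.p6), which gave no entry matched to Kif5a. Named were the 6 genes, their transcripts above the minimum, neighbouring genes at 1 TPM or more without overlap, the extremes of each list with its members without overlap, and for each gene the 3 with the highest r. Surf4, the sex check, Os9, Ddit3 and Ndufa4l2 were added outside that rule after their values were seen.

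Deviations from the genotype means correlated at 0.367, 0.588 and 0.37 between mice with replicate number 1, 2 and 3. The numbers were therefore taken to pair the mice in the replicate block and in the pair differences. The main fits and the permutation within genotypes left this pairing out. The labels give no litter. Replicates are separate mice by their titles. On simulated data for the genotype fit over 14189 genes, limma called 2 of 67 genes changed by 1 on the log2 scale, 16 of 67 changed by 2 and 46 of 66 changed by 4, with 1 false call. Alternatives were other pseudocounts, minima, scaling, the trend, the replicate block, sex as a covariate, the threshold and leaving out each mouse.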

Additional observations from a re-analysis of the deposited data

How the results depend on the processing

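The log2 fold changes of Tspan31 (-0.91 to -0.77), Inhbc (-0.87 to -0.50) and Inhbe (-0.93 to -0.20) kept their direction under 13 alternatives each, those of Agap2 (-1.40 to -0.39) and Kif5a (0.43 to 1.84) under 12 each, since both have no value at a minimum mean of 1 TPM. The Cdk4 value of 0.04 was -0.01 without Alb-Cre+ replicate 1, -0.09 without Alb-Cre+ replicate 2 and -0.17 without Alb-Cre- replicate 3, within -0.17 to 0.22 over all mice left out. The relation of Tspan31 and Cdk4 within genotypes turned from 0.835 to -0.254 with the median of ratios. With the replicate block r was -0.820, another quantity, taken over the 3 differences between paired mice. In these the Tspan31 values ran only from -0.85 to -0.81. Between the most abundant transcripts the relation within genotypes was 0.937 and passed 0.05, in arrangements that do not keep the pairing. The cause of these shifts was not tested. Leaving out a mouse gave 0.747 to 0.923, in designs that cannot reach 0.05, and the transcripts free of the overlap, an alternative chosen after seeing the data, gave 0.339. The replicate block changed no other call: 0 genes passed with it (666 at an unadjusted p under 0.05). The share of Tspan31 differed by -5.38 to -3.31 percentage points, a description on the contrast that picked the genes.

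Genes called between genotypes in limma numbered 0 to 1 when mice were left out, the 1 being Gm10240 without Alb-Cre+ replicate 1, and 0 under the other alternatives. Transcripts called numbered 2 at an adjusted p of 0.05 (of Gm49909 and Raly), 1 with the median of ratios (Raly), and 0 to 1 when mice were left out (Gm10240 without Alb-Cre+ replicate 1). None of these belongs to the 6 genes, and they were named after their values were seen. The 73 genes called between sexes became 1019 at 0.05, 28 with no minimum, 31 without the trend and 3 to 38 when mice were left out, lowest without either female. TPM hold no read numbers, so how far depth limits the values of Agap2 and Kif5a is unknown.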
